A study of Mus with 48 samples.

Results

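Transcripts of 9 neuropeptide precursors of striatal and cortical neurons (Penk, Pdyn, Tac1, Npy, Sst, Cck, Vip, Nts and Crh) were followed across 4 brain regions of mice treated with saline, with the dopaminergic neurotoxin MPTP, or with MPTP followed by treadmill exercise. The 9 genes were taken by symbol from the 23366 gene names of an expression table, and all 9 were present. C57BL/6J female mice, bought at 8 weeks of age, formed the groups Saline, MPTP and MPTP + EX, with 4 mice each. MPTP was given as 10 subcutaneous doses of 25 mg/kg with probenecid, a drug that slows its clearance; the sources used here do not state if probenecid was also given to the Saline mice. Treadmill running in the MPTP + EX group began after the MPTP course and lasted 12 weeks, with 5 sessions of 40 min per week at speeds that reached 15 m/min. Cortex, cerebellum, substantia nigra (SN) and striatum were dissected from each mouse, which gave 48 bulk RNA-seq libraries. Exercise was given only after MPTP, so its action in mice without the toxin was not measured. Levels are in FPKM, fragment counts divided by transcript length and by library depth.

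Neuropeptides are cut from larger precursor proteins, stored in dense-core vesicles and released alongside classical transmitters to act on G protein-coupled receptors. In the striatum they mark the output pathways: spiny projection neurons of the indirect pathway, which carry the dopamine receptor gene Drd2, make enkephalin from Penk, while those of the direct pathway, which carry Drd1a, make dynorphin from Pdyn and substance P from Tac1. Npy and Sst mark GABAergic interneurons in striatum and cortex, Vip and Crh mark other cortical interneurons, and Cck is made by cortical excitatory neurons, by a class of interneurons and by some midbrain dopaminergic neurons. Nts encodes neurotensin, a peptide whose receptor Ntsr1 is found on midbrain dopaminergic neurons.

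Apart from E29Stria, the 47 libraries were alike, with summed FPKM between 343661 and 402521 and 12809 to 13593 genes above 1 FPKM. The read totals are not in the table, but steps between low values put the deepest library of a region at 1.29 times (striatum) to 1.57 times (cerebellum) the depth of the shallowest. The striatum library E29Stria, from an MPTP + EX mouse, summed to 619797 FPKM with 11595 genes above 1 FPKM, and its values are shown apart. Each region showed its markers: summed FPKM of 9 medium spiny neuron genes was 2520 to 3895 in the striatum against at most 370 in the other regions, and 8 dopaminergic genes summed to 701 to 1481 in the Saline SN. All 8 of these dopaminergic genes were lower in the MPTP SN, where they summed to 237 to 306.

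In the saline mice, each precursor had its own regional profile. Penk was by far highest in the striatum, with 484 to 625 FPKM against 48.2 to 58.2 in cerebellum, 25.4 to 53.7 in cortex and 18.1 to 25.9 in SN. Its mean in the striatum was 10.4 times that of the cerebellum, the next region in order. All 6 region pairs differed for Penk by limma with Benjamini-Hochberg adjustment, although the cerebellum and cortex libraries overlapped and that pair was the weakest (adjusted p = 0.0252). With libraries scaled to a common median it did not pass (adjusted p = 0.0912).

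Pdyn and Tac1, the direct pathway peptides, were also striatal. Pdyn was at 51.4 to 68.7 FPKM in striatum, 11.7 to 18.3 in cortex, 1.04 to 6.45 in SN and 0.420 to 1.40 in cerebellum, and all 6 pairs of regions differed. Tac1 was at 119 to 156 FPKM in striatum, 13.2 to 24.0 in SN, 8.31 to 20.3 in cortex and 0.366 to 5.39 in cerebellum. Cortex and SN did not differ for Tac1 (log2 difference −0.44, 95% confidence interval −1.23 to 0.34, adjusted p = 0.319 by limma), while the other 5 pairs did.

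The interneuron peptides Npy and Sst were shared by striatum and cortex. Npy was at 117 to 158 FPKM in cortex and 91.6 to 144 in striatum, a pair that did not differ (log2 difference of striatum from cortex −0.11, 95% confidence interval −0.80 to 0.58, limma adjusted p = 0.820). It was at 19.1 to 35.5 FPKM in cerebellum and 4.64 to 19.5 in SN, and the other 5 pairs differed. Sst reached 341 to 468 FPKM in striatum, 318 to 372 in cortex, 89.7 to 219 in SN and 3.49 to 74.0 in cerebellum. Striatum and cortex again did not differ for Sst (0.18, 95% confidence interval −1.05 to 1.40, limma adjusted p = 0.839). The difference of striatum from SN lay at the threshold (1.41, limma adjusted p = 0.0470) and was lost with a pseudocount of 0.1, with no filter and with no trend (adjusted p of 0.0646, 0.0745 and 0.0540). Still, neither striatum nor cortex libraries overlapped with SN. Cortex against SN did not pass (limma adjusted p = 0.0772), but did without S1 of the cerebellum (0.000248). That library had 3.49 FPKM of Sst, against 39.3 to 74.0 in the other saline cerebellum libraries, and the regions share 1 estimate of the spread.

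Cck and Vip were cortical, and Nts was the only member whose highest saline mean was in the SN. Cck was at 452 to 575 FPKM in cortex, above 62.8 to 199 in striatum, 53.6 to 140 in SN and 52.7 to 135 in cerebellum. Vip was at 18.5 to 21.3 FPKM in cortex and at most 4.27 in any other saline library, and cortex differed from each of the other 3 regions. Nts was at 6.05 to 15.2 FPKM in SN and 4.31 to 6.28 in striatum, a pair that did not pass (log2 difference of striatum from SN −0.52, limma adjusted p = 0.116), and at no more than 2.095 FPKM in cortex and cerebellum. Crh, the stress peptide corticotropin-releasing hormone, was low throughout, at 3.21 to 5.35 FPKM in cortex, 0.517 to 7.48 in SN, 2.09 to 3.02 in striatum and 0 to 1.21 in cerebellum, where it was lower than in each of the other regions. Its SN and cerebellum libraries overlapped, however. That call (limma adjusted p = 0.0177) was lost without S3 of the SN (0.0563) or S1 of the cerebellum (0.0651).

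**Figure D1:**
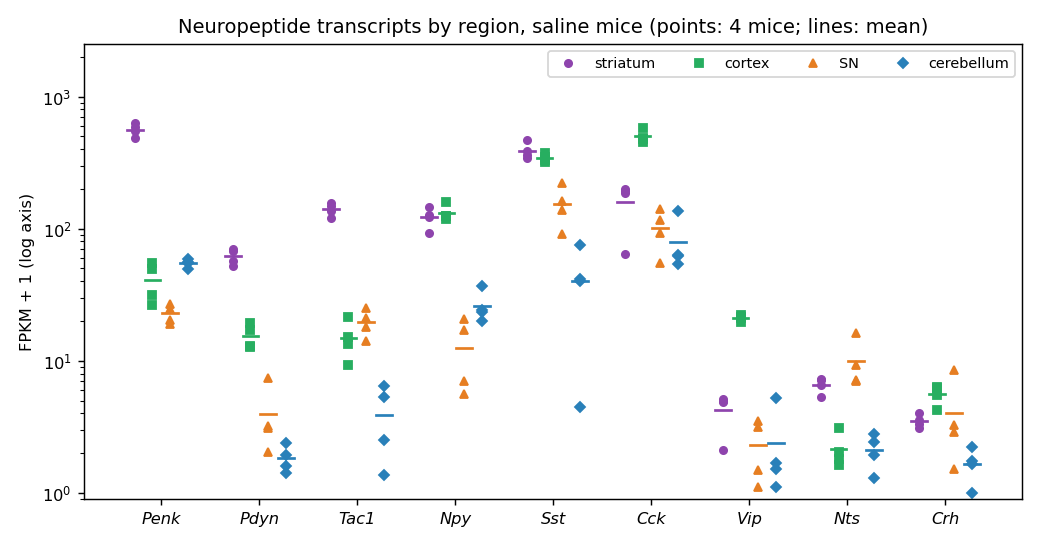
FPKM + 1 on a log axis of the 9 precursors in saline mice, with 1 point per library (4 mice) and a line at the mean for striatum, cortex, SN and cerebellum. Penk, Pdyn and Tac1 stand highest in striatum (means of 561, 60.7 and 139 FPKM), Cck and Vip in cortex (498 and 20.1), and Npy and Sst at like levels in striatum and cortex.

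Over the 6 region pairs, 40 of 54 comparisons of a member passed an adjusted p of 0.05. Of all genes, 35.4% passed for striatum against cortex, 57.6% for striatum against SN, 64.8% for striatum against cerebellum, 59.5% for cortex against SN, 66.7% for cortex against cerebellum and 66.2% for SN against cerebellum. In the same order, 6, 5, 8, 6, 8 and 7 of the 9 members passed, so a difference between regions was common among all genes too. All 5 members that differed between striatum and SN were higher in striatum.

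Some saline libraries carried markers of a neighbouring tissue, and the neuropeptides moved with them. The striatum of mouse S4 had 1.09 FPKM of Vip and 62.8 of Cck, against 3.84 to 4.18 and 185 to 199 in the other 3. The same library had 64.6 summed FPKM of 7 markers of neocortical and hippocampal excitatory neurons, against 283 to 291 in the others. Without it, Cck (limma adjusted p = 0.00932) and Vip (0.0230) differed between striatum and SN, where with it neither passed (0.161 and 0.0737). The cerebellum of mouse S2 had the highest Vip (4.27 FPKM), Cck (135) and Sst (74.0) of the 12 cerebellum libraries, together with the highest of the cortical factors Tbr1 (5.24 FPKM, at most 1.23 elsewhere) and Emx1 (5.65, at most 0.722). Without it, Vip differed between striatum and cerebellum (limma adjusted p = 0.00223, against 0.0504 with it). The part of such tissue in these values was not tested.

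In the striatum, Penk read higher in MPTP than in Saline mice, though not past the adjustment for all genes. The Saline libraries had 585, 550, 484 and 625 FPKM of Penk (561 ± 59.7, SD, n = 4), and the MPTP libraries 764, 745, 809 and 678 (749 ± 54.7, n = 4). The lowest MPTP library lay above the highest Saline library. Penk was the only member of 9 whose groups did not overlap in this comparison, a pattern held by 5.67% of all genes. On the log2(FPKM + 1) scale the difference was 0.42 (SE 0.0927, 95% confidence interval 0.22 to 0.62, unadjusted p = 0.00066 by limma). It did not pass the adjustment over all 13220 genes tested (adjusted p = 0.284).

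No member passed an adjusted p of 0.05 for MPTP against Saline in the striatum by limma, where 0.0227% of all genes did. At an unadjusted p under 0.05 there were 2 of 9 members (Penk higher, Cck lower), against 10.1% of all genes. In the striatum of MPTP + EX mice, Penk was at 598, 737 and 732 FPKM in the libraries other than E29Stria, between the other groups and overlapping each. The difference from Saline was 0.30 (SE 0.1002, limma unadjusted p = 0.0118, adjusted p = 0.373), and that from MPTP was −0.12 (SE 0.1002, 95% confidence interval −0.34 to 0.09, limma adjusted p = 0.708). Of all genes, 0.00756% passed the adjustment for MPTP + EX against Saline and 0.0151% for MPTP + EX against MPTP; no member passed in either. At an unadjusted p under 0.05 these comparisons held 1 of 9 members each, Penk and Cck, against 10.2% of all genes in each.

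For the direct pathway peptides the groups overlapped in each comparison, and whether they differed from Penk in response was not tested. Pdyn was at 67.2, 51.4, 55.5 and 68.7 FPKM in Saline, 58.2, 64.6, 71.7 and 55.9 in MPTP, and 53.7, 76.0 and 57.8 in MPTP + EX striatum, so the groups lay on top of each other. Its log2 difference was 0.05 for MPTP against Saline (95% confidence interval −0.22 to 0.31, limma adjusted p = 0.909), −0.01 for MPTP + EX against MPTP and 0.04 for MPTP + EX against Saline. Tac1 was at 148, 135, 119 and 156 FPKM in Saline, 159, 147, 190 and 141 in MPTP, and 119, 169 and 168 in MPTP + EX. These groups overlapped as well. The log2 difference of Tac1 was 0.19 for MPTP against Saline (95% confidence interval −0.09 to 0.47, limma adjusted p = 0.618), −0.07 for MPTP + EX against MPTP and 0.11 for MPTP + EX against Saline. For MPTP against Saline, the intervals of Tac1 and of Pdyn each overlapped with that of Penk.

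In Saline mice the balance of Penk to Tac1 varied less than either level. The ratio of Penk to Tac1, chosen after its values were seen and therefore given with no test, was 3.96 to 4.09 in the 4 Saline striatum libraries, although Penk itself ranged from 484 to 625 FPKM there. It was 4.27 to 5.08 in the MPTP libraries and 4.35 to 5.03 in 3 MPTP + EX libraries. Neither group overlapped with Saline. A ratio to Tac1 that was higher without overlap was found for 0.159% of all genes in MPTP against Saline and for 0.295% in MPTP + EX against Saline. The ratio of Penk to Pdyn, also given with no test, was 8.72 to 10.7 in Saline and 11.3 to 13.1 in MPTP, again apart (0.643% of all genes). It was 9.69 to 12.7 in MPTP + EX, which overlapped both.

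Penk was also set against other genes of the indirect pathway. The ratio of Penk to Adora2a, the adenosine receptor gene of these neurons, was 3.59 to 4.25 in Saline, 4.60 to 4.88 in MPTP and 5.10 to 5.56 in MPTP + EX, with no overlap between any of the groups. For MPTP against Saline, 0.409% of all genes had a higher ratio to Adora2a without overlap. For MPTP + EX against Saline and against MPTP it was 16.8% and 24.6%, so those steps were common. Such shares depend on the denominator, and mean Adora2a was 141 FPKM in Saline, 157 in MPTP and 128 in MPTP + EX. These ratios too were not tested. The ratio of Penk to Drd2 was 5.20 to 6.05 in Saline, 5.98 to 6.33 in MPTP and 5.95 to 7.18 in MPTP + EX, and the groups overlapped. Within the direct pathway, Tac1 to Drd1a was 2.79 to 3.62 in Saline, 2.84 to 3.31 in MPTP and 3.08 to 3.75 in MPTP + EX.

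**Figure D2:**
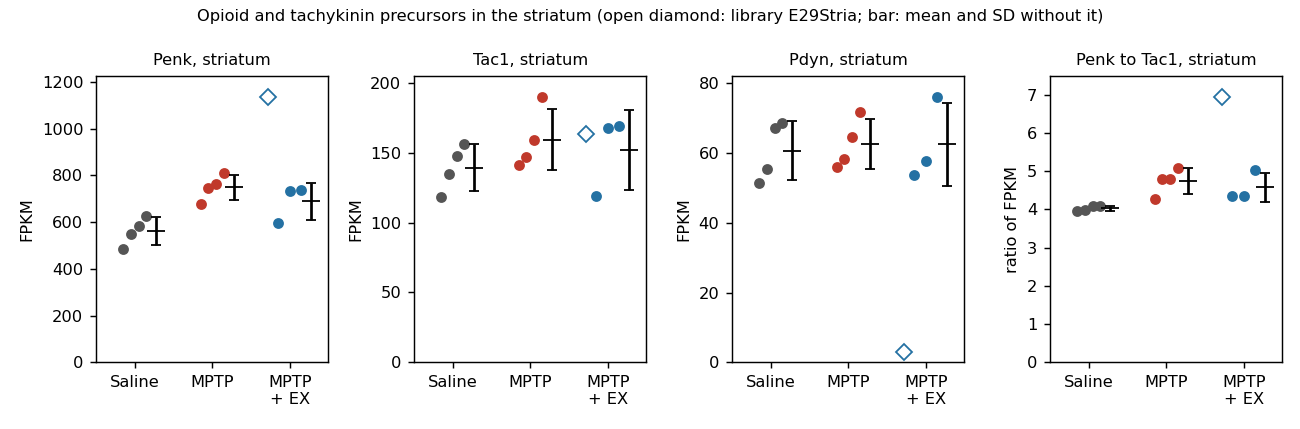
FPKM of Penk, Tac1 and Pdyn and the ratio of Penk to Tac1 in each striatum library, with the mean and SD at the right of each group and E29Stria as an open diamond left out of them. Penk in MPTP (678 to 809 FPKM) lies above Saline (484 to 625), Tac1 and Pdyn overlap, and the ratio lies within 3.96 to 4.09 in Saline and at 4.27 or more elsewhere.

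Markers of the tissue dissected moved in the same comparison. All 9 of 9 medium spiny neuron markers had a higher mean in MPTP than in Saline striatum (median log2 difference 0.17), with summed levels of 3216 to 3895 FPKM against 2829 to 3355, which overlapped. All 7 neocortical and hippocampal markers were lower (sums of 35.3 to 166 against 64.6 to 291 FPKM). All 5 choroid plexus markers were lower (median −0.87, sums of 37.0 to 844 against 56.2 to 2503 FPKM), and all 5 cerebellar markers were higher at low levels (median 0.39, sums of 2.83 to 18.2 against 2.68 to 6.06). The summed interneuron markers were 23.7 to 24.995 against 25.01 to 27.6 FPKM, but 3 of 6 were higher and 3 lower (median −0.05). With the mean of the medium spiny markers as a covariate, the log2 difference of Penk between MPTP and Saline was 0.23 (limma unadjusted p = 0.0116), and with the neocortical markers 0.29 (unadjusted p = 0.00584), each with an adjusted p above 0.9 (1.0 and 0.923). In these bulk samples, fewer cells of a type and less RNA per cell cannot be told apart.

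Cck in the striatum followed the neocortical markers. It was at 199, 185, 191 and 62.8 FPKM in Saline, 112, 27.9, 32.3 and 123 in MPTP, and 202, 118 and 114 in MPTP + EX. The groups overlapped, and the lowest values came from the libraries with the lowest neocortical sums: mice M16, M21 and S4 had 39.2, 35.3 and 64.6 summed FPKM, and the other 8 had 135 to 379. The log2 difference was −1.27 for MPTP against Saline (SE 0.50, limma unadjusted p = 0.0255, adjusted p = 0.436) and 1.22 for MPTP + EX against MPTP (SE 0.540, unadjusted p = 0.0435, adjusted p = 0.477). With the neocortical markers as a covariate these values were −0.23 and 0.17 (unadjusted p of 0.331 and 0.483), and with the medium spiny markers they were −0.22 and −0.21, the latter with its sign turned. The medium spiny sums did not overlap between MPTP + EX (2520 to 3085 FPKM) and MPTP (3216 to 3895), so that fit cannot separate markers from group. Vip, at 1.09 to 4.18 FPKM in Saline, 0.758 to 2.40 in MPTP and 1.33 to 4.82 in MPTP + EX striatum, was likewise lowest in M16, M21 and S4.

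The other precursors of the striatum showed no difference past the adjustment. Npy was at 91.6 to 144 FPKM in Saline, 109 to 125 in MPTP and 117 to 125 in MPTP + EX, with log2 differences of −0.03 for MPTP against Saline (95% confidence interval −0.26 to 0.21) and 0.03 for MPTP + EX against MPTP (−0.22 to 0.29). Sst was at 341 to 468, 336 to 374 and 310 to 367 FPKM in the same groups, and its difference between MPTP + EX and Saline was −0.20 (95% confidence interval −0.41 to 0.01, limma adjusted p = 0.519). Nts was at 4.31 to 6.28 FPKM in Saline, 6.06 to 11.6 in MPTP and 3.64 to 16.3 in MPTP + EX, widest after exercise. Crh stayed between 1.51 and 3.02 FPKM in all 11 libraries.

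E29Stria did not resemble the other striatum libraries in its neuropeptides. It had 1136 FPKM of Penk, 1232 of Sst, 352 of Npy and 686 of Cck, each above all 11 others, but 2.89 FPKM of Pdyn, below all of them. Tac1 (164 FPKM), Vip (4.38), Nts (4.18) and Crh (1.85) lay within their range. The ratio of Penk to Tac1 was 6.94. The nuclear RNA Malat1 was at 17.5 FPKM against 148 or more in the other 47 libraries, Drd2 at 24.0 against 93.1 to 128 in the striatum, and Adora2a at 150 lay within the range of 107 to 171. The 5 choroid plexus markers summed to 8541 FPKM, against 37.0 to 2503 in the other striatum libraries. With this library in the fit, the log2 difference of Penk between MPTP and Saline had a limma unadjusted p of 0.0441, and 1.06% of all genes reached an unadjusted p under 0.05 in place of 10.1%. Pdyn then differed by −0.97 between MPTP + EX and Saline (limma adjusted p = 0.635).

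In the SN, Npy read lower in MPTP + EX than in MPTP, again short of the adjustment. Npy was at 4.64, 16.1, 6.04 and 19.5 FPKM in Saline, 15.8, 14.8, 13.7 and 34.9 in MPTP, and 4.43, 4.29, 5.67 and 8.88 in MPTP + EX. Every MPTP library lay above every MPTP + EX library, and Saline spread over both. The log2 difference between MPTP + EX and MPTP was −1.55 (SE 0.410, 95% confidence interval −2.44 to −0.66, limma unadjusted p = 0.00242), which did not pass the adjustment over 13483 genes (adjusted p = 0.421). In a fit of all 4 regions, which shares the spread between them, it did (limma adjusted p = 0.00092). That fit called 124 of 13402 genes (0.925%) in this comparison. The SD of Npy was 36.7% to 63.6% of the mean in the SN groups and at most 28.7% in the groups of other regions. The shared spread is thus not that of the SN mice. Npy was the only member without overlap in this comparison, against 4.74% of all genes.

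Cck in the SN was at 53.6, 115, 92.4 and 140 FPKM in Saline, 146, 108, 53.9 and 148 in MPTP, and 42.6, 73.2, 37.2 and 47.05 in MPTP + EX. The MPTP + EX libraries were low as a group, but E27 overlapped with the lowest library of each other group. Its log2 difference was −1.11 for MPTP + EX against MPTP (SE 0.344, limma unadjusted p = 0.00673, adjusted p = 0.486) and −0.95 against Saline (SE 0.344, unadjusted p = 0.0163, adjusted p = 0.208). Nts had the opposite sign, at 6.05, 6.17, 15.2 and 8.35 FPKM in Saline, 3.06, 5.89, 4.43 and 7.35 in MPTP, and 5.06, 10.9, 8.75 and 11.1 in MPTP + EX, with overlap between all groups. Its log2 difference was 0.68 for MPTP + EX against MPTP (SE 0.300, limma unadjusted p = 0.0409, adjusted p = 0.660) and −0.65 for MPTP against Saline (unadjusted p = 0.0509).

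No member passed the adjustment in any SN comparison by limma. Of all genes, 0.638% passed for MPTP against Saline, 0% for MPTP + EX against MPTP and 1.02% for MPTP + EX against Saline. At an unadjusted p under 0.05 the members counted 0, 3 and 1 of 9, against 11.3%, 7.30% and 15.8% of all genes.

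**Figure D3:**
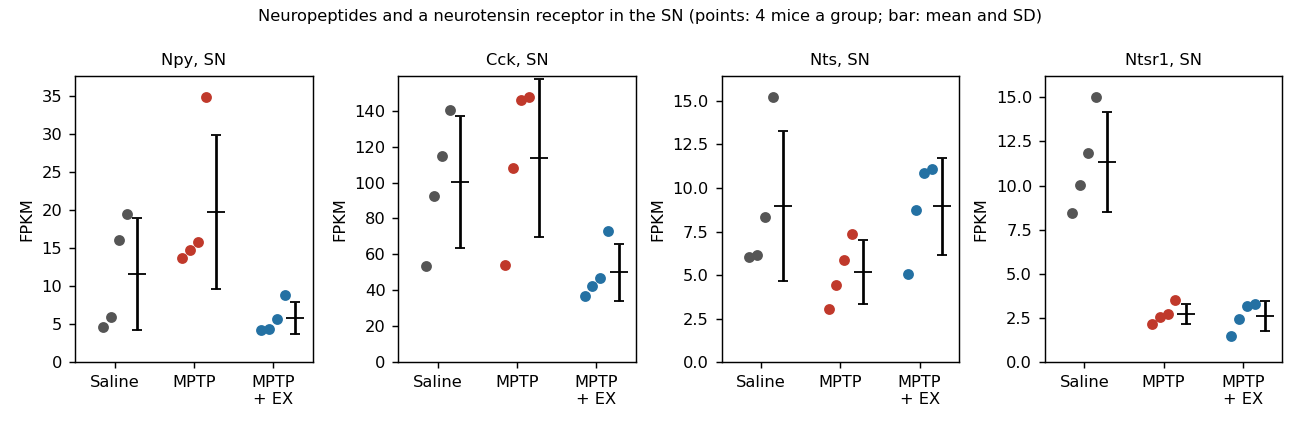
FPKM of Npy, Cck, Nts and the neurotensin receptor Ntsr1 in each SN library by group, with the mean and SD at the right of each. Npy in MPTP (13.7 to 34.9) lies above MPTP + EX (4.29 to 8.88), Cck and Nts overlap, and Ntsr1 falls from 8.46 to 15.01 in Saline to at most 3.51 in MPTP.

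The SN libraries differed in neocortical and hippocampal markers along the same lines. The 7 markers summed to 32.6 to 136 FPKM in Saline, 86.7 to 187 in MPTP and 23.2 to 48.6 in MPTP + EX, and all 7 were lower in MPTP + EX than in MPTP, with sums that did not overlap. Mouse M23, with the highest Npy (34.9 FPKM) and Vip (4.09), had the highest sum (187) and the highest Tbr1 (7.65 FPKM, at most 2.18 in the other SN libraries). With the mean of these markers as a covariate, an alternative added after seeing the data, the log2 difference of Npy between MPTP + EX and MPTP was −0.33 (limma unadjusted p = 0.461), that of Cck −0.13 (0.743), and that of Nts 0.55 (0.265). As the marker sums did not overlap between these groups, that fit cannot separate markers from group. Single libraries did not always pair the values: M21 had a sum of 86.7 with 53.9 FPKM of Cck, and S3 a sum of 32.6 with 92.4 FPKM. In M21, 61.1 FPKM of that sum was Slc17a7, which was also at 175 to 309 FPKM in the cerebellum libraries. M21 had the highest summed cerebellar markers of the SN libraries too (382 FPKM). All 5 cerebellar markers were higher in MPTP than in Saline SN and lower in MPTP + EX than in MPTP, with sums that overlapped. The part of neocortical or cerebellar tissue in these differences was not tested further.

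**Figure D4:**
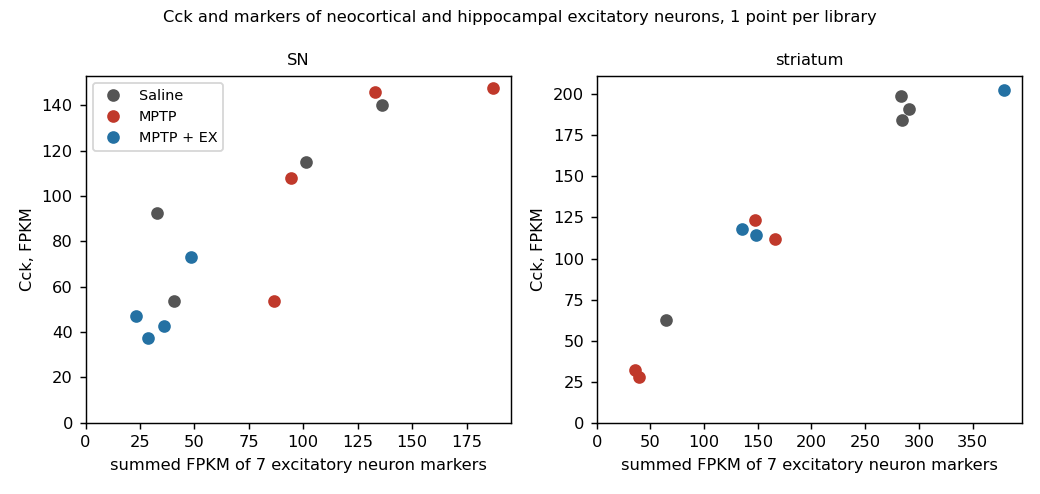
Cck in FPKM against the summed FPKM of 7 markers of neocortical and hippocampal excitatory neurons, 1 point per library, in SN (12 libraries) and striatum (11 libraries, E29Stria left out). In both regions the libraries with the highest sums (187 in SN, 379 in striatum) have the highest Cck (148 and 202 FPKM).

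Penk, Pdyn, Tac1, Sst and Crh in the SN overlapped between all groups. Penk was at 18.1 to 25.9 FPKM in Saline, 20.1 to 35.7 in MPTP and 24.1 to 51.5 in MPTP + EX. The highest value, in mouse E29, came with the highest Tac1 (32.6 FPKM) of the 12 SN libraries, and with 13.4 FPKM of the hypothalamic factor Otp (at most 2.60 in the others) and 45.9 FPKM of the glutamate transporter gene Slc17a6. Crh and Pdyn were highest in Saline mouse S3 (7.48 and 6.45 FPKM), where Nts was highest too (15.2) and Slc17a6 was at 37.2 FPKM, against 11.3 to 24.3 in the 10 libraries other than these.

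In the cortex the members differed little between groups. Vip, which marks interneurons that act on other interneurons, was at 20.01, 21.3, 20.5 and 18.5 FPKM in Saline and 21.1, 22.2, 27.4 and 20.7 in MPTP + EX. The groups overlapped, and only E28 stood clearly above Saline. Its log2 difference was 0.17 (SE 0.0783, limma unadjusted p = 0.0459, adjusted p = 0.285), and 0.08 without E28. It was the only member at an unadjusted p under 0.05 in the 3 cortex comparisons, where 20.0% (MPTP against Saline), 5.73% (MPTP + EX against MPTP) and 17.1% (MPTP + EX against Saline) of all genes were; 0% of genes passed the adjustment in each.

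Cck, Npy and Sst, the most abundant members in cortex, overlapped between all groups. Cck was at 452 to 575 FPKM in Saline, 512 to 581 in MPTP and 478 to 580 in MPTP + EX, with a log2 difference of 0.11 for MPTP against Saline (95% confidence interval −0.07 to 0.28). Npy was at 117 to 158, 124 to 157 and 122 to 144 FPKM, with a difference of 0.07 (−0.13 to 0.27). Sst was at 318 to 372, 263 to 335 and 281 to 339 FPKM, with a difference of −0.16 (−0.34 to 0.02, limma adjusted p = 0.304).

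Penk in cortex was high in the libraries with the most striatal markers. It was at 48.5, 25.4, 30.7 and 53.7 FPKM in Saline, 28.99, 33.8, 28.99 and 27.6 in MPTP, and 61.9, 28.3, 25.8 and 36.0 in MPTP + EX. Its 3 highest libraries, E26, S4 and S1, were also the 3 highest in Adora2a (8.96, 12.3 and 9.11 FPKM, at most 4.33 in the other 9) and in summed medium spiny markers (345, 370 and 322, at most 281 in the others). Tac1 was highest in E26 and S1 (23.1 and 20.3 FPKM), but in S4, with the highest marker sum, it was at 14.1 FPKM, no higher than in M16. The part of striatal tissue in these values was not tested.

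In the cerebellum 5 of 9 members (Penk, Tac1, Npy, Sst and Cck) had a mean above 1 FPKM and were tested. None passed an adjusted p of 0.05 or an unadjusted p of 0.05 by limma; of all genes, 0%, 0.0154% and 0% passed the adjustment for MPTP against Saline, MPTP + EX against MPTP and MPTP + EX against Saline, and 11.9%, 5.78% and 16.9% were at an unadjusted p under 0.05. Penk was even, at 48.2 to 58.2 FPKM in Saline, 52.0 to 59.4 in MPTP and 53.4 to 61.7 in MPTP + EX. Its log2 difference was 0.08 for MPTP against Saline (95% confidence interval −0.06 to 0.22).

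Sst and Tac1 in the cerebellum split the libraries within the Saline and MPTP + EX groups, with no MPTP library among the low ones. Sst was at 3.49, 4.64 and 7.05 FPKM in S1, E27 and E29 and at 25.7 to 74.0 in the other 9. Tac1 was lowest in the same 3 libraries, at 0.366, 0.120 and 0.645 FPKM, with 1.499 in S2 and 3.60 to 5.94 in the remaining 8. Slc17a6, a glutamate transporter gene of deep nuclear and brainstem neurons, was also low in S1, S2, E27 and E29 (2.84 to 4.94 FPKM, against 12.1 to 18.9 in the other 8). The part of unequal dissection in these values was not tested.

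**Figure D5:**
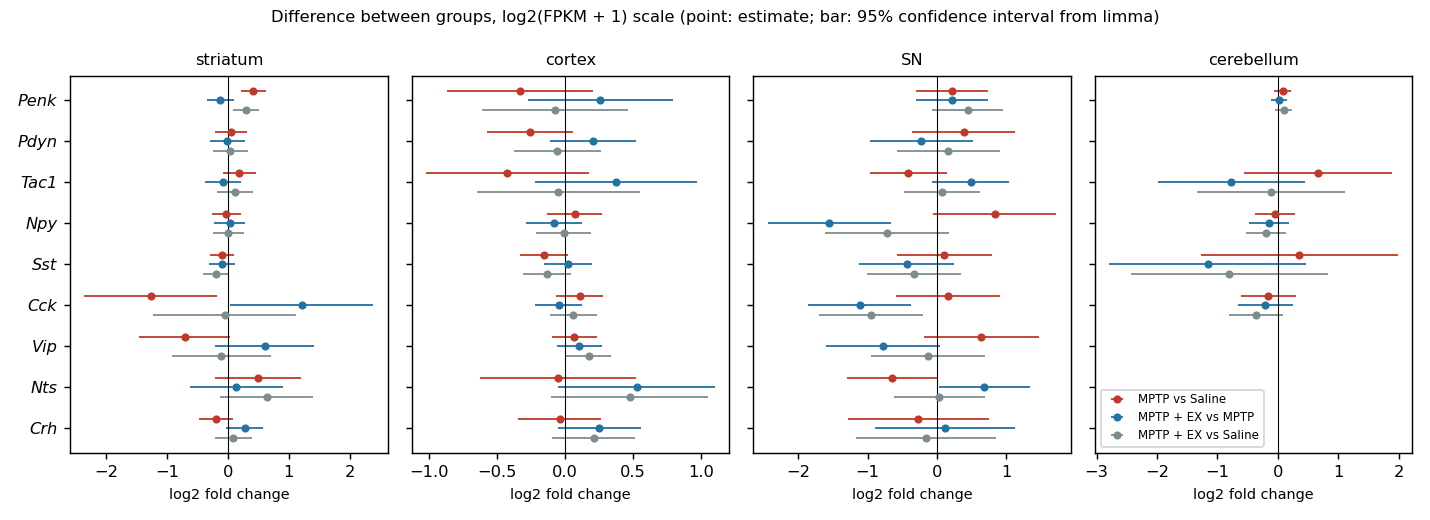
Log2 difference between groups (point) with its 95% confidence interval (bar) from limma, on the log2(FPKM + 1) scale, for the members tested in each region (9 in striatum, cortex and SN, 5 in cerebellum). The intervals of Penk in striatum are narrow (0.22 to 0.62 for MPTP against Saline), while those of Cck in striatum (−2.36 to −0.18) and Npy in SN (−2.44 to −0.66 for MPTP + EX against MPTP) are wide.

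Whether a response differed between regions was tested in 1 fit of 47 libraries. No member passed in any of 12 contrasts (0 of 108 comparisons by limma, with 18 at an unadjusted p under 0.05). These 18 are 16.7% of the member tests, against 7.53% of all gene tests over the 12 contrasts, which reuse the same libraries. The closest were Cck and Npy for MPTP + EX against MPTP, striatum against SN, where 0.0298% of all genes passed. The log2 difference of Cck after exercise was 1.22 in striatum and −1.11 in SN, and these differed by 2.33 (SE 0.536, 95% confidence interval 1.24 to 3.41, unadjusted p = 9.6e-05, limma adjusted p = 0.0806). Npy differed by 1.58 (SE 0.383, unadjusted p = 0.00018, limma adjusted p = 0.0914). With E29Stria in the fit both passed (adjusted p of 0.0333 for Cck and 0.0458 for Npy). This fit shares 1 estimate of the spread of a gene among the 4 regions. The SD of Npy was 36.7% to 63.6% of the mean in the SN groups and 3.79% to 18.1% in the striatum groups. The SE of its difference is thus not that of the SN mice. The neocortical markers moved in opposite directions in the same regions, with 7 of 7 higher in the striatum and 7 of 7 lower in the SN of MPTP + EX mice. Among these markers, Slc17a7 itself passed in this contrast (difference of 3.71, limma adjusted p = 0.0206, without E29Stria).

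Within a region, receptors of these peptides showed the only changes past the adjustment among the members and the lists of related genes. Of 24 receptor genes listed, 19 were tested in the SN, and 2 of 19 fell with MPTP against Saline, with none higher; the median of the list was 0.03, against 0.02 over all genes, of which 0.571% passed as lower. Ntsr1, the high-affinity neurotensin receptor, was at 10.01, 15.01, 8.46 and 11.9 FPKM in Saline SN, 2.71, 2.55, 2.18 and 3.51 in MPTP and 2.43, 3.22, 3.33 and 1.47 in MPTP + EX. Both MPTP groups lay far below Saline and overlapped each other. Ntsr1 fell by 1.71 on the log2 scale with MPTP (SE 0.195, limma adjusted p = 0.00087) and by 1.78 in MPTP + EX against Saline (SE 0.195, adjusted p = 0.00059).

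Oprk1, the receptor of the Pdyn product dynorphin, was at 4.18, 4.32, 3.54 and 4.30 FPKM in Saline SN and 2.74, 2.21, 1.85 and 2.36 in MPTP, and fell by 0.63 (SE 0.121, limma adjusted p = 0.0358). The groups did not overlap, as 3.97% of all genes did in the lower direction. This call was lost without a filter (adjusted p = 0.0667) and without any of 7 libraries (E27, M16, M21, M23, S1, S2 or S4, adjusted p of 0.0509 to 0.131). In MPTP + EX, Oprk1 was at 2.43, 2.19, 2.24 and 3.43 FPKM, and its difference from Saline was −0.52 (adjusted p = 0.0646). Both receptors are known from dopaminergic neurons, and the dopaminergic gene Th was at 135 to 294 FPKM in Saline SN, 31.4 to 40.1 in MPTP and 19.2 to 45.2 in MPTP + EX. In MPTP + EX against Saline, 1 of 19 receptors was called lower (Ntsr1), against 0.764% of all genes.

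No receptor passed in the striatum (19 tested), cortex (15) or cerebellum (9), in any comparison, with 9, 5 and 2 tests at a limma unadjusted p under 0.05 (15.8%, 11.1% and 7.41% of the receptor tests, against 10.2%, 14.3% and 11.5% of all gene tests). Among 13 genes of precursor processing, dense-core vesicles and peptide breakdown, none passed in any region (0 of 153 tests by limma, 28 at an unadjusted p under 0.05, or 18.3% against 11.8% of all gene tests). Pcsk1 encodes a prohormone convertase that makes the first cuts in many precursors. In cortex it was at 10.4, 10.4, 8.88 and 10.7 FPKM in Saline, 13.0, 14.4, 13.6 and 13.4 in MPTP and 14.1, 17.9, 16.6 and 13.7 in MPTP + EX. Saline lay below both other groups without overlap, as 7.89% of all genes did for MPTP against Saline and 3.88% for MPTP + EX against Saline. The log2 difference was 0.40 with MPTP (SE 0.0829, limma adjusted p = 0.0679) and 0.58 in MPTP + EX (SE 0.0829, adjusted p = 0.0821). Of 19 other neuropeptide genes in the table, 7 to 15 were tested in each region and none passed (0 of 135 tests by limma, 13 or 9.63% at an unadjusted p under 0.05).

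Between regions, the response of 5 listed genes to MPTP differed, each with the lower value in the SN. Pcsk1 differed by 0.89 between cortex and SN (SE 0.186, limma adjusted p = 0.00787), with a log2 difference of 0.40 in cortex and −0.49 in SN (adjusted p = 0.221 within the SN). Scg2, which encodes the vesicle protein secretogranin II, was at −0.49 in the SN (limma adjusted p = 0.0991) and differed by 0.68 for striatum against SN, 0.68 for cortex against SN and −0.81 for SN against cerebellum (adjusted p of 0.0472, 0.0350 and 0.0105). Ntsr1 differed in the same 3 contrasts (1.43, 1.95 and −1.51, limma adjusted p at most 0.00046), although it was at no more than 1.82 FPKM in the striatum and 0.794 in the cerebellum, and with a pseudocount of 0.1 those contrasts did not pass (adjusted p of 0.314 for striatum and 0.483 for cerebellum). Oprk1 differed between cortex and SN (0.80, adjusted p = 0.0401) and so did Nucb2, the nesfatin precursor (0.60, adjusted p = 0.0448). The calls of Pcsk1, of Ntsr1, and of Scg2 against the cerebellum held without any single library, while those of Oprk1, Nucb2 and Scg2 in the other contrasts were lost in leave-one-out fits (highest limma adjusted p of 0.1095 for Oprk1, 0.118 for Nucb2, and 0.147 and 0.107 for Scg2 against striatum and cortex). With E29Stria in the fit only the 3 calls of Ntsr1 remained. Of all genes, 0.657%, 1.10% and 0.381% passed for SN against striatum, cortex and cerebellum, and no member did.

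Over the 12 means of region and group, the genes most like each precursor by Pearson r of log2(FPKM + 1), among 13402 genes, were as follows. For Penk these were Krt10 (r = 0.997), Ivns1abp (0.993) and Pde10a (0.990), the last a phosphodiesterase gene of spiny neurons. Pdyn was most like Bcl11b (0.996), Kcnk2 and Hpca, and Tac1 was most like Gm10421 (0.992), Kcna4 and Sytl5. Cck was most like Neurod6 (0.984), Tex40 and Vip, and Vip was most like Plec (0.991), Tex40 and Wnt10a. Npy was most like Mpv17l (0.993), Egr4 and Wasf1, Sst most like Ctxn1 (0.995), Snx7 and 2610017I09Rik, Nts most like Robo1 (0.976), Nit2 and Dock10, and Crh most like Dlk2 (0.991), Mpped1 and Ildr2. The points share libraries and regions, so these values describe the profiles and carry no test.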

How the data were processed

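RNA was extracted with TRIzol, and the authors deposited 1 table of FPKM values, by gene symbol, for 48 libraries. The study's methods name Tophat2, Cufflinks and RSEM, and the submitters' processing notes name HISAT2 2.1, HTSeq 0.11 and the mm9 build; which of these made the FPKM values was not given in the sources used here. FPKM values do not hold the counts, so no count test was run. Spreadsheet-damaged names (27 dates) were left out. Columns were assigned to groups by name; the labels number replicates without naming mice, so mouse names (S1 to S4, M6 to M23, E26 to E29) come from the columns. Each group came from separate mice.

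Values were transformed to log2(FPKM + 1), genes with a mean above 1 FPKM over the fitted libraries were kept, and groups were compared with limma 3.58.1 (R 4.3.3), two-sided, with an intensity trend and Benjamini-Hochberg adjustment over all genes. Each region had 1 fit of 3 groups (striatum without E29Stria), the saline regions 1 fit and the region-by-treatment differences 1 fit. Fold changes on this scale understate changes of low genes. The fits were tested on simulated data. The pseudocount (0.1), filter, scaling, trend, libraries fitted and mouse block were varied, and each library was left out in turn. Named genes were all members, with full statistics at an unadjusted p under 0.05 and for Penk, Pdyn and Tac1 in the striatum; listed genes past an adjusted p of 0.05; and the 3 genes most like each member. The members and lists were chosen with earlier results of these data known. Precision is limited by 4 mice a group.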

Additional observations from a re-analysis of the deposited data

Results flagged for a closer look

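Of 108 sets of 4 libraries (9 genes, 3 groups, 4 regions), 11 held a library far from the other 3, where chance gives about 5.4 (1 in 20) for independent sets. The 9 genes share their libraries, so the sets are not independent and no excess over chance can be read from these counts. In MPTP + EX striatum, E29Stria stood apart for Pdyn (2.89 FPKM, 53.7 to 76.0 in the others), Npy (352, against 117 to 125) and Sst (1232, against 310 to 367), and E26 for Tac1 (119, against 164 to 169). In Saline striatum, S4 stood apart for Cck (62.8 FPKM, against 185 to 199) and Vip (1.09, against 3.84 to 4.18). In the SN, E29 stood apart for Penk (51.5 FPKM, against 24.1 to 25.4), and M23 for Npy (34.9, against 13.7 to 15.8) and Crh (3.26, against 1.33 to 1.49). In the cortex E29 stood apart for Npy (144 FPKM, against 122 to 125), and in the cerebellum M6 for Sst (25.7, against 36.6 to 38.9).

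E29Stria, which was left out of the main comparisons, was above every Saline striatum library for 6 members: Penk (1136 FPKM, at most 625 in Saline), Tac1 (164, at most 156), Npy (352, at most 144), Sst (1232, at most 468), Cck (686, at most 199) and Vip (4.38, at most 4.18).

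The response to MPTP differed between regions by limma's interaction term for genes related to the members. Ntsr1 differed by 1.43 (striatum against SN), 1.95 (cortex against SN) and −1.51 (SN against cerebellum), and Scg2 by 0.68, 0.68 and −0.81 in the same contrasts. Between cortex and SN, Oprk1 differed by 0.80, Pcsk1 by 0.89 and Nucb2 by 0.60. Ntsr1 was low in striatum (at most 1.82 FPKM in Saline) and cerebellum (at most 0.794), and those contrasts did not pass with a pseudocount of 0.1. The calls of Oprk1, of Nucb2, and of Scg2 against striatum and cortex were lost in leave-one-out fits. The dopaminergic markers of the SN, 8 of 8 lower in MPTP than in Saline, moved in the same comparison; their part in these values was not tested.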

How the results depend on the processing

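No member was called in any treatment comparison within a region under any alternative, apart from Npy in the SN for MPTP + EX against MPTP, where a fit of all 4 regions called 1 member (and 0.925% of all genes, against 0% in the region's own fit). Leaving out each library gave 0 calls in each of these 12 comparisons; the log2 difference of Penk in the striatum for MPTP against Saline then ran from 0.35 to 0.47 (adjusted p 0.133 to 0.765) and that of Npy in the SN from −1.75 to −1.26 (adjusted p 0.290 to 0.838). The saline region pairs gave 40 calls, and 37 to 43 when a library was left out. The region-by-treatment differences gave 0 calls, 2 with E29Stria in the fit, and 0 to 2 when a library was left out: Cck (and, for M21 and S4 of the SN, also Npy) passed for MPTP + EX against MPTP, striatum against SN, without E27, M21 or S4 of the SN or M23, M6 or S4 of the striatum, and Cck also passed for MPTP against Saline without S4 of the striatum. With a pseudocount of 0.1, Ntsr1 was not called for MPTP against Saline in striatum against SN (adjusted p = 0.314) and SN against cerebellum (0.483). Cck in the striatum, MPTP + EX against MPTP, turned to −0.21 with the medium spiny markers as a covariate, an alternative added after seeing the data. The sums of these markers did not overlap between the groups, so that fit cannot separate markers from group. The cause was not tested. With E29Stria, Penk in the striatum differed by 0.06 between MPTP + EX and MPTP, and Pdyn by −0.97 between MPTP + EX and Saline.

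No paired analysis was possible because the treatment groups hold different mice. Between regions, with the mouse as a replicate block from the column names, the saline pairs gave 41 calls (Vip between striatum and cerebellum was added, adjusted p = 0.0352) and the region-by-treatment differences 0. Libraries of the same mouse deviated together only in part: r was over 0.1 in 10 of 24 pairs in Saline (median 0.08), 17 of 24 in MPTP (median 0.15) and 7 of 21 in MPTP + EX (median 0.08), and in all 4 MPTP mice for striatum with cortex and striatum with SN.

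Read totals are not in the table, so members near or under 1 FPKM (Vip, Nts, Crh and Pdyn in the cerebellum) could not be compared at a known depth.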

Other observations

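Hypothalamic markers were high in single SN libraries. E28 of the MPTP + EX group had 26.96 FPKM of Pmch, the melanin-concentrating hormone precursor of the lateral hypothalamus, and 34.4 summed FPKM of 7 hypothalamic markers. E29 had a sum of 15.7, of which 13.4 FPKM was the factor Otp, with 0.973 FPKM of Pmch. The other 10 SN libraries had sums of 3.35 to 8.42. The members in E28 lay inside the range of the other 11 SN libraries, apart from Cck (37.2 FPKM), which was the lowest.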
